A study of Mus musculus with 12 samples.

Results

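The genes described here are 10 genes of de novo lipogenesis and fatty acid elongation, namely Acly, Acaca, Acacb, Fasn, Scd1, Me1, Elovl3, Elovl5, Elovl6 and Thrsp. They were chosen by gene symbol from the Ribo-seq table, and all 10 were found among its 25033 entries. In Ribo-seq, RNA not covered by ribosomes is digested and the fragments left, called footprints, are sequenced, so a gene's reads follow the ribosomes on its mRNA. The livers came from male C57BL/6 mice aged 16 weeks. The HFD group (n = 3 libraries) had eaten a high-fat diet, with 45% of its energy as fat, for 8 weeks. The LYC group (n = 3 libraries) had eaten the same diet with the carotenoid lycopene at 0.33% by weight. Both groups therefore shared the high-fat diet, and no mice on ordinary feed were analysed here. In the LYC samples the treatment label names the high-fat diet alone, so their lycopene comes from the titles and the study's methods. The labels speak of RNA and footprints being pooled before library construction. The titles, however, number 3 libraries a group, each with its own tag, and the study describes 3 biological replicates a group. If the libraries are not single mice, the p-values measure only the spread between libraries.

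De novo lipogenesis turns surplus carbohydrate into fatty acids in the liver. Acly splits exported citrate into acetyl-CoA, Acaca and Acacb carboxylate acetyl-CoA to malonyl-CoA, and Fasn builds palmitate from malonyl-CoA with NADPH, part of which comes from Me1. Elongases of the Elovl family then lengthen the chain and Scd1 places a double bond in it. The pathway is known to be raised by insulin through the transcription factor encoded by Srebf1 and by glucose through the one encoded by Mlxipl. Thrsp encodes a small protein that responds to thyroid hormone and to carbohydrate feeding and goes along with lipogenesis in liver and fat.

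Values are RPKM, the reads per kilobase of transcript, scaled to the total reads of a library. The library totals implied by the steps between RPKM values ran from 834410 to 4405541 reads in HFD and from 311050 to 412116 reads in LYC. The series also holds 6 libraries labelled RNA-seq, whose counts match the Ribo-seq reads for most well-covered genes, for HFD under other numbers, so every result below is from the Ribo-seq table unless stated. All 10 genes passed the filter on low values, with 15 to 101585 reads a gene and library. To be called, a gene needed a log2 fold change beyond 1 in either direction together with p below 0.01, unadjusted, in limma's moderated two-sided test, and adjusted p-values are Benjamini-Hochberg values over all 5775 genes tested. Of these genes, 404 or 7.0% were called higher in LYC and 364 or 6.3% were called lower, and the median log2 fold change was -0.10. Summed hepatocyte markers ran from 37350 to 42490 scaled RPKM in HFD and from 32250 to 45680 in LYC, so the labelled tissue was seen in every library. Of these 8 markers, Cps1 and Tdo2 were called higher in LYC, at log2 fold changes of 1.08 and 1.81 (adjusted p = 0.0546 and 0.0033 in limma). Markers of lymphocytes and neutrophils summed to 0.780 to 2.58 in HFD and 11.9 to 28.8 in LYC, with Nkg7 at 0 in every library and Cd3e and Cd79a at 0 in LYC. Cholangiocyte markers summed to 14.9 to 23.6 in HFD and 3.61 to 9.22 in LYC, with Krt19, Krt7 and Epcam at 0 in LYC. No gene of either list, or of the adipocyte list, passed the filter on low values described below. In LYC a read on a gene of 1 kb is worth 2.4 to 3.2 RPKM, so these LYC sums and zeros rest on few reads. The groups overlapped in the sums of adipocyte, macrophage, stellate and endothelial markers. Of the 7 adipocyte markers, Plin1, Lep and Retn were at 0 in every library and Adipoq was at 0 in LYC, and the sums were 7.97 to 12.4 in HFD and 9.30 to 33.9 in LYC. The part of these differences in the results below was not tested. In bulk tissue, fewer cells of a type and less RNA per cell cannot be told apart.

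Of the 10 genes, Thrsp and Elovl6 were called higher in LYC, Elovl3 was called lower, and 7 were not called. The enzymes that make palmitate, Acly, Acaca and Fasn, were among those not called, and so was Scd1. The 10 genes had a median log2 fold change of 0.37, with 6 above 0 and 4 below. The called share was thus 2 of 10 upward beside 7.0% of all genes tested, and 1 of 10 downward beside 6.3%.

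**Figure D1:**
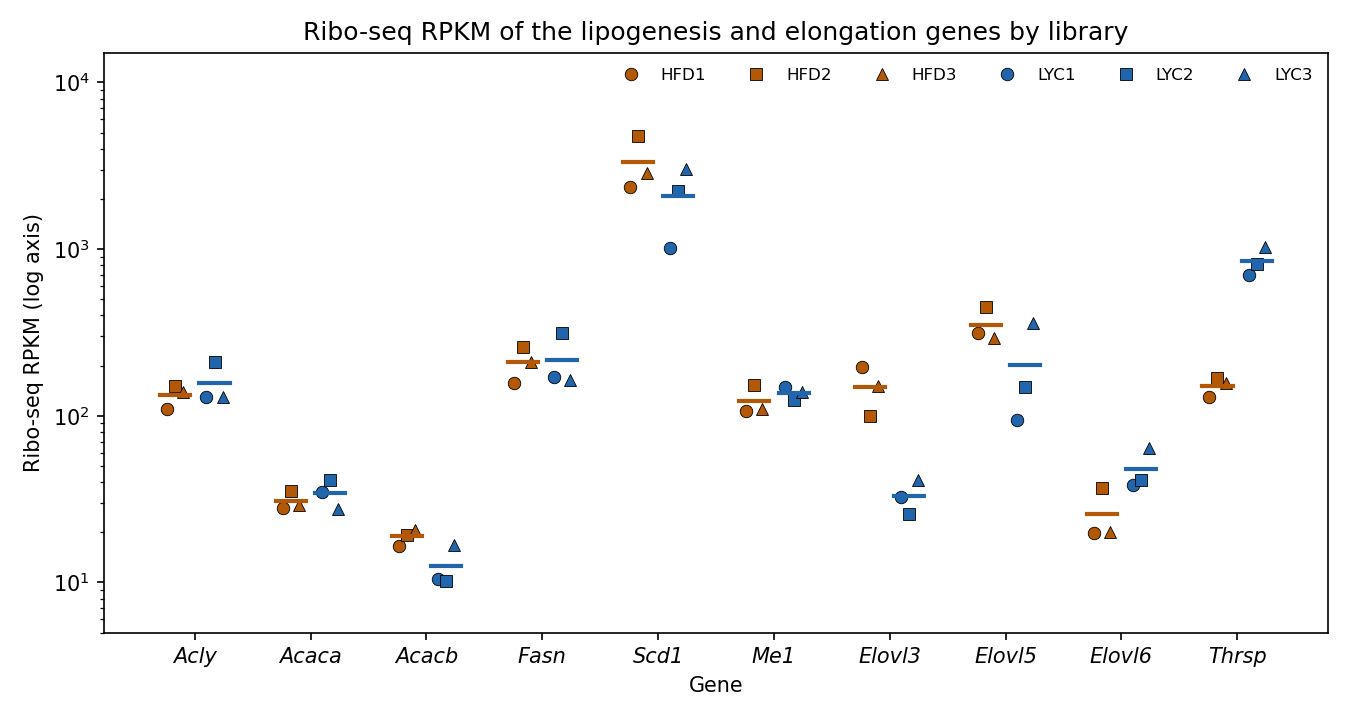
Ribo-seq RPKM as deposited, on a log axis, of the 10 genes in the 3 HFD and 3 LYC libraries. Each symbol is a library and each bar a group mean. All LYC values of Thrsp and Elovl6 lie above their HFD values, all LYC values of Elovl3 lie below, and the groups overlap for the other 7 genes.

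Thrsp lies at chr7:97412933-97417550 on the minus strand of GRCm38 and has 2 exons. It had 129, 169 and 157 RPKM in HFD1, HFD2 and HFD3 and 695, 811 and 1033 RPKM in LYC1, LYC2 and LYC3. The lowest LYC library was far above the highest HFD library, and the LYC libraries spread among themselves more than the HFD libraries. The means were 152 ± 20.6 (SD, n = 3) and 846 ± 172 RPKM (SD, n = 3), which is 5.58-fold. The log2 fold change in limma was 2.76 (SE 0.23, adjusted p = 0.00027), with a 95% interval of 4.68-fold to 9.78-fold. It held the 27th smallest p of the genes tested, and 66 genes had a higher log2 fold change. Behind these values stood 387, 821 and 144 reads in HFD and 302, 278 and 469 reads in LYC. Thrsp stayed called when any of the 6 libraries was left out, with log2 fold changes of 2.60 to 2.85.

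The elongases Elovl6 and Elovl3 were called in opposite directions. Elovl6, which lengthens palmitate to stearate, lies at chr3:129532386-129638495 on the plus strand with 5 exons. It had 19.7, 36.9 and 20.1 RPKM in the HFD libraries and 38.4, 41.1 and 63.6 RPKM in the LYC libraries. HFD2 came close to LYC1, and the groups did not overlap. The means were 25.6 ± 9.77 (SD, n = 3) and 47.7 ± 13.9 RPKM (SD, n = 3), and the log2 fold change was 1.18 (SE 0.30, adjusted p = 0.0387 in limma). This call was lost without HFD1, HFD3, LYC1 or LYC3, where the adjusted p in limma was 0.145, 0.161, 0.0825 and 0.0555 and the log2 fold change was 1.05, 1.06, 1.23 and 0.95. It was also lost when the RPKM values were used as deposited, with a log2 fold change of 0.90 (adjusted p = 0.109 in limma), and with an unadjusted p below 0.001 required, as its own was 0.00368.

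Elovl3, which makes very long saturated and monounsaturated chains, lies at chr19:46131897-46135694 on the plus strand with 4 exons. It had 197, 99.5 and 151 RPKM in the HFD libraries and 32.4, 25.7 and 41.3 RPKM in the LYC libraries. Every LYC library was below every HFD library, and HFD2 was the lowest of HFD. The means were 149 ± 48.7 (SD, n = 3) and 33.1 ± 7.86 RPKM (SD, n = 3), which is 4.51-fold lower in LYC. In limma the log2 fold change was -1.82 (SE 0.37, adjusted p = 0.0182), with a 95% interval from -2.66 to -0.98. The LYC values rest on 24, 15 and 32 reads, against 1009, 824 and 237 in HFD. The call held without each of the 6 libraries, at -2.24 to -1.57, though the adjusted p in limma then ran from 0.0125 to 0.0838.

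Elovl5, which elongates polyunsaturated chains, lies at chr9:77917365-77984519 on the plus strand with 8 exons. It had 315, 448 and 294 RPKM in the HFD libraries and 94.8, 148 and 361 RPKM in the LYC libraries. LYC1 and LYC2 were below all HFD libraries, whereas LYC3 lay among them. The log2 fold change was -0.71 (SE 0.42, 95% interval -1.67 to 0.24, adjusted p = 0.29 in limma). Without LYC3 Elovl5 was called lower at -1.26 (adjusted p = 0.0154 in limma). The coefficient of variation between the LYC libraries was 70.0%, the highest of the 10 genes in either group.

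Scd1, the main stearoyl-CoA desaturase of liver, lies at chr19:44394450-44407709 on the minus strand with 6 exons. It had 2362, 4767 and 2841 RPKM in the HFD libraries and 1018, 2233 and 3012 RPKM in the LYC libraries. LYC3 lay above HFD3, and LYC1 and LYC2 lay below all HFD libraries, the order also seen for Elovl5. The means were 3324 ± 1273 (SD, n = 3) and 2088 ± 1005 RPKM (SD, n = 3), and the log2 fold change was -0.45 (SE 0.39, adjusted p = 0.473 in limma). Its 95% interval ran from 0.397-fold to 1.36-fold and thus covers both a fall and a rise. The log2 fold change of Scd1 was -0.79 without LYC3 and -0.09 without LYC1, with no call in either case.

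Acly lies at chr11:100476352-100528000 on the minus strand with 29 exons. It had 110, 150 and 138 RPKM in the HFD libraries and 129, 211 and 129 RPKM in the LYC libraries. The groups overlapped, and LYC2 stood above all other libraries. In limma the log2 fold change was 0.50 (SE 0.24, 95% interval -0.05 to 1.05, adjusted p = 0.204).

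Fasn lies at chr11:120805958-120825166 on the minus strand with 43 exons. It had 157, 260 and 211 RPKM in the HFD libraries and 171, 312 and 164 RPKM in the LYC libraries. LYC2 was again the highest, and the other LYC libraries lay within the HFD range. The log2 fold change was 0.30 (SE 0.27, adjusted p = 0.49 in limma), with a 95% interval of 0.799-fold to 1.90-fold, and it was 0.07 without LYC2.

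The acetyl-CoA carboxylases were both left uncalled. Acaca, the cytosolic form, lies at chr11:84129635-84401651 on the plus strand with 54 exons and had 27.9, 35.4 and 29.2 RPKM in HFD and 34.8, 40.9 and 27.7 RPKM in LYC. Acacb, the form at the mitochondrial outer membrane whose malonyl-CoA restrains fatty acid import, lies at chr5:114146321-114250761 on the plus strand with 52 exons and had 16.6, 19.2 and 20.8 RPKM in HFD and 10.5, 10.2 and 16.9 RPKM in LYC. The groups overlapped for both genes. In limma the log2 fold change was 0.43 for Acaca (SE 0.25, adjusted p = 0.28) and -0.31 for Acacb (SE 0.31, adjusted p = 0.534). Me1, the cytosolic malic enzyme, lies at chr9:86581363-86695914 on the minus strand with 14 exons. It had 106, 154 and 109 RPKM in HFD and 149, 124 and 138 RPKM in LYC, again with overlap, and a log2 fold change of 0.47 (SE 0.24, adjusted p = 0.226 in limma). The upper 95% limits of Acly, Acaca, Fasn and Me1 ran from 1.90-fold to 2.07-fold.

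The scaling between libraries bears on these genes. The trimmed mean of M-values (TMM) factors of edgeR ran from 1.03 to 1.26 in HFD and from 0.801 to 1.00 in LYC. After division by them, all LYC libraries were above all HFD libraries for Acly, Acaca, Me1, Elovl6 and Thrsp, which is 5 of 10 genes beside 18.7% of all genes tested. All LYC libraries were below all HFD libraries for Elovl3, 1 of 10 beside 18.9%. On the deposited RPKM, LYC lay above HFD for Elovl6 and Thrsp, 2 of 10 beside 9.87% of all genes tested, and below HFD for Elovl3, 1 of 10 beside 27.5%. Without the factors the median over all genes tested moved on the log2 scale from -0.10 to -0.36. The log2 fold change of Fasn was then 0.01 and that of Elovl5 was -1.01.

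**Figure D2:**
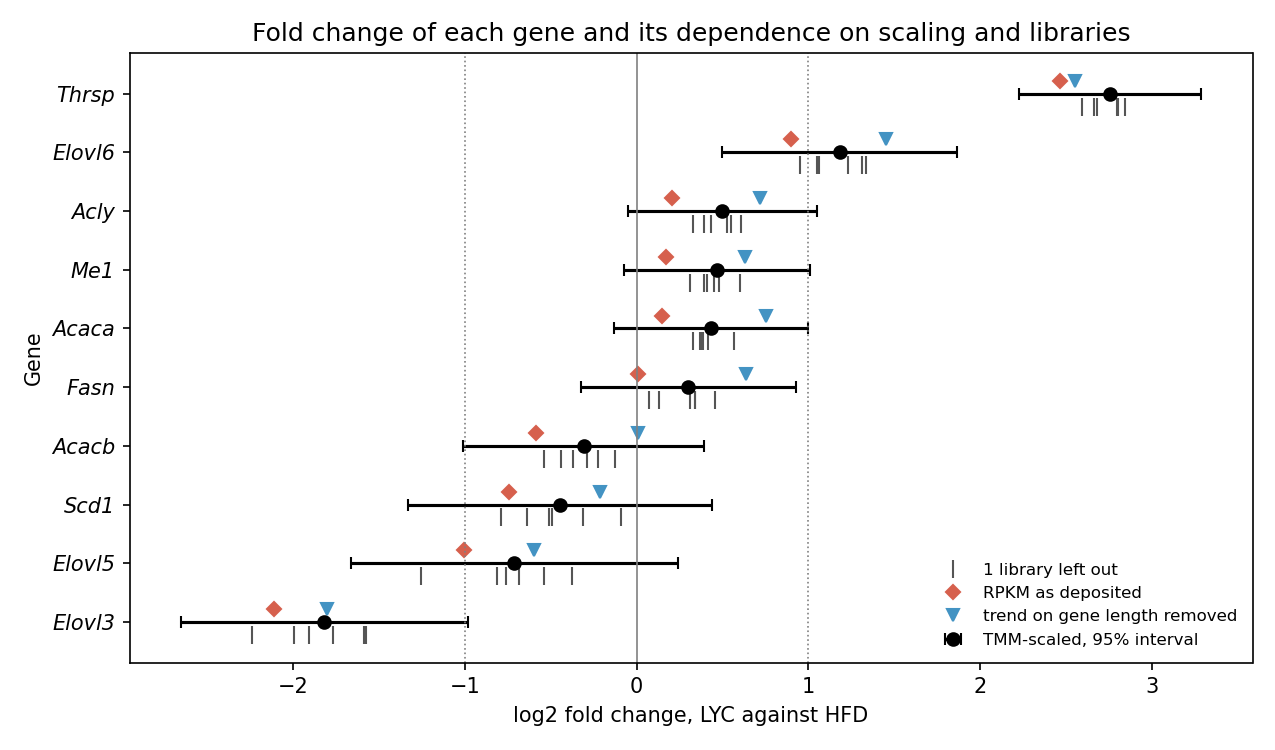
Log2 fold change of LYC against HFD in limma for each gene, with its 95% interval (black), from fits that leave out 1 library each (ticks), from RPKM as deposited (diamonds) and with the trend on gene length removed (triangles). Dotted lines mark an absolute log2 fold change of 1. Thrsp and Elovl3 lie beyond 1 under every setting shown, Elovl6 lies on both sides of 1, and Acacb falls at 0.01 with the length trend removed.

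The libraries of a group did not move alike across the 10 genes. By deposited RPKM, HFD2 was the highest HFD library for 8 genes, and after scaling for 5, with HFD3 the highest for 4. LYC3 was the highest LYC library for Acacb, Scd1, Elovl3, Elovl5, Elovl6 and Thrsp, while LYC2 was the highest for Acly, Acaca and Fasn and LYC1 for Me1. After scaling the genes with LYC3 highest were the same, and Acaca moved from LYC2 to LYC1.

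As a ratio of 2 genes within a library needs no scaling, several were computed, with pairs chosen after the values were seen. Elovl6 relative to Elovl3 was 0.10, 0.370 and 0.133 in HFD against 1.18, 1.6 and 1.54 in LYC. The groups were separate, with a ratio 8.39-fold higher in LYC. Per kilobase of coding sequence it was 0.322, 1.19 and 0.428 in HFD and 3.81, 5.14 and 4.95 in LYC, so which gene had the higher level in HFD2 depends on the length used. Thrsp relative to Fasn was 0.819, 0.651 and 0.742 in HFD and 4.06, 2.60 and 6.28 in LYC, which is 5.52-fold higher. Elovl3 relative to Fasn was 1.25, 0.383 and 0.716 in HFD and 0.189, 0.0824 and 0.251 in LYC. Scd1 relative to Fasn was 15.0, 18.3 and 13.5 in HFD and 5.95, 7.17 and 18.3 in LYC, so the groups overlapped through LYC3. Elovl5 relative to Fasn overlapped in the same way, and Elovl6 relative to Fasn and Acaca relative to Acacb overlapped too. With 3 libraries against 3 the smallest two-sided p of an exact permutation test is 0.1, and this was the p of each of the ratios whose groups did not overlap.

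**Figure D3:**
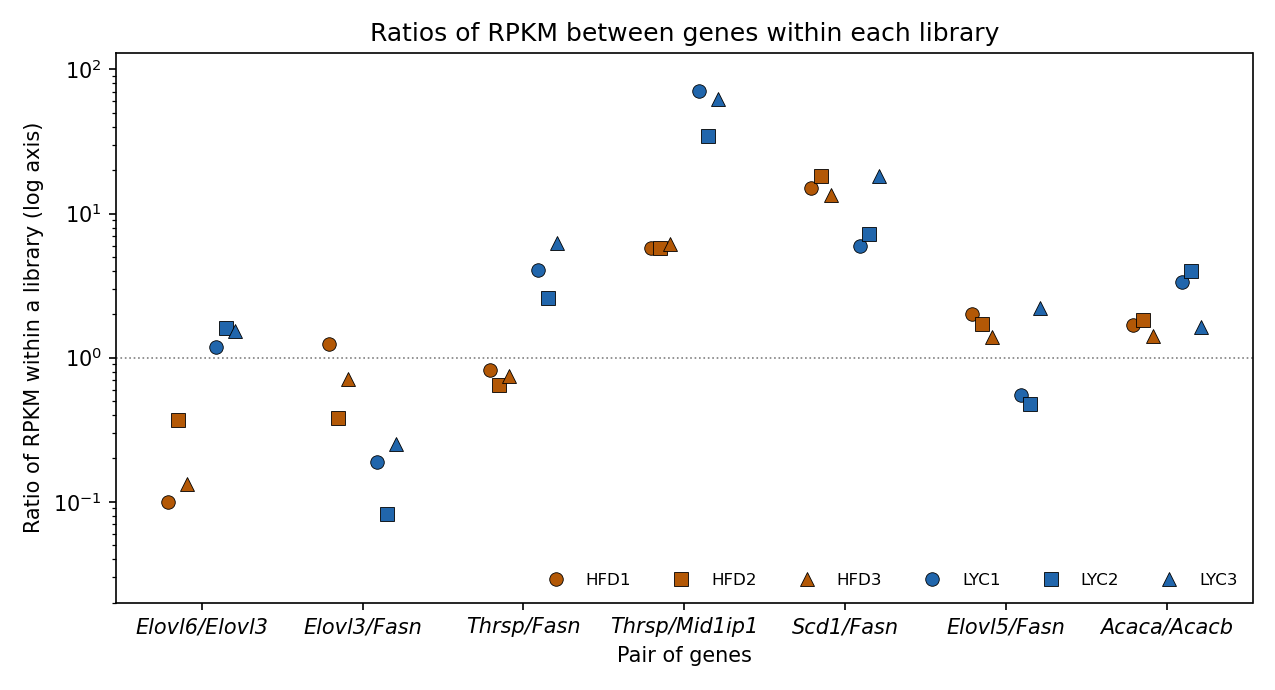
Ratio of the RPKM of 2 genes within each of the 3 HFD and 3 LYC libraries, on a log axis, where the dotted line marks equal RPKM. Elovl6/Elovl3 runs from 0.10 to 0.370 in HFD and from 1.18 to 1.6 in LYC, while Scd1/Fasn and Elovl5/Fasn overlap through LYC3.

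The 10 genes together held 1.85%, 3.13% and 2.31% of the recovered reads on listed genes in HFD and 1.06%, 1.93% and 2.28% in LYC. The means were 2.43% ± 0.651 (SD, n = 3) and 1.76% ± 0.627 (SD, n = 3), a difference within the spread of the libraries (exact permutation test, two-sided, p = 0.4). Scd1 alone held 1.84% ± 0.581 (SD, n = 3) of HFD reads and 1.14% ± 0.546 (SD, n = 3) of LYC reads (exact permutation p = 0.2). The other 9 genes held 0.589% ± 0.0756 and 0.623% ± 0.110 (SD, n = 3 each, exact permutation p = 0.7).

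Levels of different genes can be compared only per length, and here the length matters. The length used in the table equalled the full spliced length of a RefSeq transcript for 9 of the 10 genes and differed by 2 bases for Elovl6, so RPKM counts untranslated regions. Footprints mostly fall on coding sequence, whereas fragments of total RNA cover the whole transcript, and as the kind of read is in doubt here, both scales are given. The coding part made up 13.5% of the transcript of Elovl6 and 86.6% of that of Acacb. By RPKM in HFD the order was Scd1, Elovl5, Fasn, Thrsp, Elovl3, Acly, Me1, Acaca, Elovl6 and Acacb. Scd1 at 3324 RPKM and Elovl5 at 352 RPKM stood apart from their neighbours, the libraries of Fasn, Thrsp, Elovl3, Acly and Me1 overlapped from each gene to the next, and so did those of Acaca, Elovl6 and Acacb. Per kilobase of coding sequence, again scaled to the total, Elovl6 rose from the ninth place to the seventh with 189 ± 72.3 (SD, n = 3), among Me1 at 247 and Acly at 178. Scd1 had 15052 and Acacb 21.8 on that scale. The ratio of a gene's LYC mean to its HFD mean is the same on both scales.

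**Figure D4:**
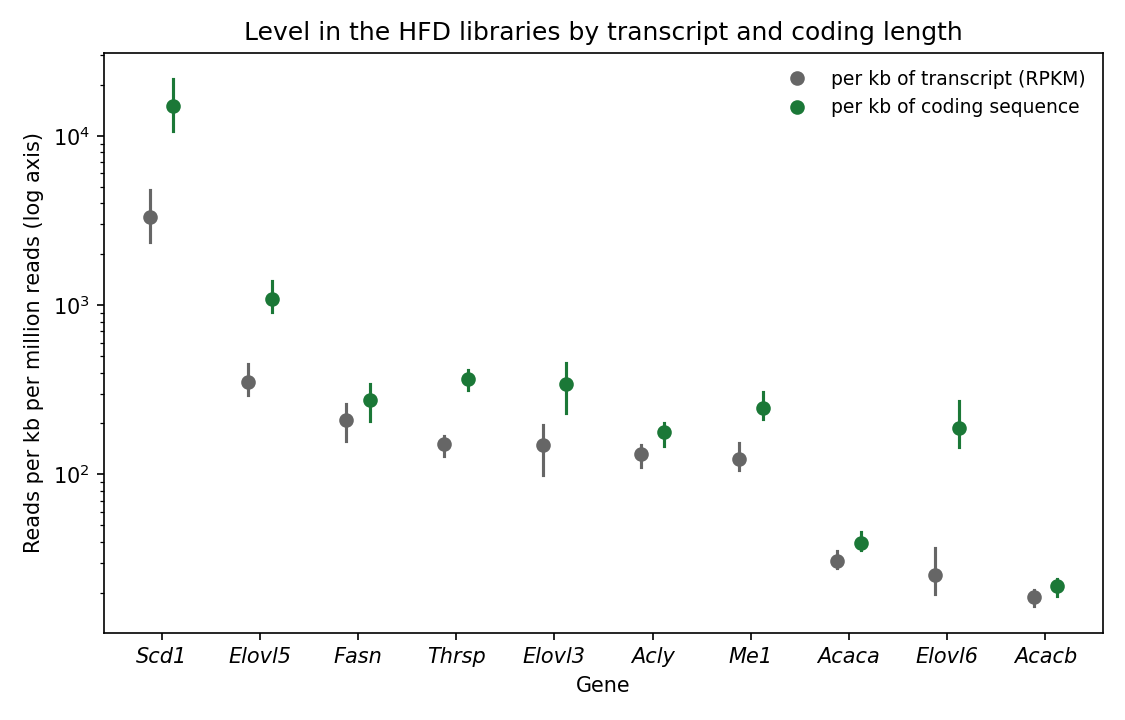
Mean level of each gene in the 3 HFD libraries (points) with the lowest and highest library (lines), per kilobase of transcript (RPKM, grey) and per kilobase of coding sequence (green), on a log axis. Scd1 is highest and Acacb lowest on both scales, and Elovl6 lies above Acaca per coding kilobase, at 189 against 39.6.

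Promoter sequences were read from RefSeq for GRCm38.p6, from 250 bases before to 50 bases after the start of an annotated transcript. Of the 10 genes, 8 had an entry, and Me1 had 2, so 9 windows were searched. The start lay at the end of the span given above for Thrsp, Elovl6, Acly, Elovl5 and 1 window of Me1. It lay inside that span by 619 bases for Fasn, 8637 for the other window of Me1, 19197 for Acacb and 65803 for Acaca. Thrsp and Elovl6 are printed because they were called higher and Fasn because it is the synthase itself, each 5′ to 3′ on its own strand. Capitals mark matches to CCAAT, the box of the factor NF-Y, on either strand (ATTGG on the opposite strand) and, in Elovl6, to AGGTCA, a core motif of nuclear receptors, on the opposite strand (TGACCT). In Fasn, 2 matches overlap in CCAATTGG. The entry for Thrsp is chr7:97417501-97417800 (minus strand), that for Elovl6 is chr3:129532136-129532435 (plus strand) and that for Fasn is chr11:120824498-120824797 (minus strand).
Thrsp: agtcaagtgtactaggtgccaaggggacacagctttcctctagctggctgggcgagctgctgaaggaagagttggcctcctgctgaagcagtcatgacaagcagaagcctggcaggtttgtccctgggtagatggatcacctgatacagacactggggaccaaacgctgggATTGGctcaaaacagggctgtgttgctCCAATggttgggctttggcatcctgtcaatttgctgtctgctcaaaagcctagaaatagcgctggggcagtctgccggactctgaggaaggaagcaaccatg
Elovl6: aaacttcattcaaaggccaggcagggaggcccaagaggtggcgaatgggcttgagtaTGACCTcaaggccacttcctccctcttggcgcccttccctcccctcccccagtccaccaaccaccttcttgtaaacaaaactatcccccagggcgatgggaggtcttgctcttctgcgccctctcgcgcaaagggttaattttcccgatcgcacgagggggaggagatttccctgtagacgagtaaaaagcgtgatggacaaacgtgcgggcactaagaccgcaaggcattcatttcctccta
Fasn: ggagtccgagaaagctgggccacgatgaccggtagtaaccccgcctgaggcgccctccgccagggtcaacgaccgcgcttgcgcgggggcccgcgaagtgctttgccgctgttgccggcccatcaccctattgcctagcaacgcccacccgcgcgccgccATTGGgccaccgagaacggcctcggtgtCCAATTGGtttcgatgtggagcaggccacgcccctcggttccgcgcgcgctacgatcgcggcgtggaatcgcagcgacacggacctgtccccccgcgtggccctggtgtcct

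In Thrsp the boxes begin 79 and 52 bases before the start, and in Fasn they begin 90, 62 and 59 bases before it. The AGGTCA match of Elovl6 begins 193 bases before the start. CCAAT was found in 6 of the 9 windows, with Me1 counted through its inner window only, and 37.4% of all 32851 promoters of this length hold it. GGGCGG, the Sp1 box, was found in Acly and the outer window of Me1 (35.7% of all promoters), AGGTCA in 3 windows (16.3%), TATAAA in Acacb (13.6%) and the E-box CACGTG in Elovl5 (7.15%). The sterol response element searched, TCACNCCAC, was found in 0 of the 9 windows and in 1.24% of all promoters. All motifs were searched on both strands, and no other motif of the search was found in the windows printed.

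The regulators of the pathway were read from a list of 20 genes, of which 16 passed the filter. Of these limma called 0 higher beside 7.0% of all genes tested and 5 lower beside 6.3%, with a median log2 fold change of -1.01 beside -0.10 for all genes tested. At an unadjusted p below 0.05, 0 were higher and 9 lower, beside 15.0% and 14.9% of all genes. On the recovered reads edgeR and DESeq2 each called 0 higher and 6 lower, where edgeR called 8.59% of all genes higher and 6.81% lower and DESeq2 8.81% and 6.72%. The filter asks for enough reads in any 3 libraries. Nr1h3, on 6, 4 and 13 LYC reads, Mbtps1 and Nr1h2 passed it only with the help of HFD libraries. A gene that passes in this way can be called lower but hardly higher. The counts and the median therefore cannot show a direction of the regulators as a set. Srebf1 had 54.9, 96.5 and 92.0 RPKM in HFD and 14.1, 96.2 and 47.8 RPKM in LYC, with overlap and a log2 fold change of -0.65 (adjusted p = 0.448 in limma) that ran from -1.20 without LYC2 to -0.01 without LYC1. Mlxipl had 34.3, 25.3 and 32.6 RPKM in HFD and 10.2, 5.52 and 18.7 RPKM in LYC, with a log2 fold change of -1.20 (adjusted p = 0.117 in limma) on 14, 6 and 27 LYC reads. Mlxipl was called lower without LYC3, at -1.62, as well as on the deposited RPKM and with the replicate block, and it had -0.74 without LYC2. Insig2, which holds the SREBP precursor in the endoplasmic reticulum, fell from 123 ± 20.3 to 39.7 ± 6.22 RPKM (SD, n = 3 each, log2 fold change -1.31, adjusted p = 0.00945 in limma). Nr1h3, which encodes the oxysterol receptor LXR alpha, fell from 42.5 ± 7.32 to 11.5 ± 5.87 RPKM (log2 fold change -1.61, adjusted p = 0.0245 in limma). Scap, the escort of the SREBP precursor, and Mbtps1, the protease that first cleaves it, fell at -1.71 and -1.85 (adjusted p = 0.0444 and 0.0483 in limma), the latter on 1, 5 and 10 LYC reads. The call of Scap was lost without HFD2 or HFD3 and that of Mbtps1 without HFD1, HFD2, HFD3 or LYC2, at log2 fold changes that stayed between -1.98 and -1.22 and between -2.32 and -1.28. The fifth gene called lower, Nr1h2 for LXR beta, was named after its values were seen and rests on 0, 1 and 5 LYC reads. Its call was lost without LYC1 or LYC2, it did not pass the filter without HFD2 or HFD3, and neither it nor Mbtps1 was called with a pseudocount of 0.1 or with no filter. The number called lower ran from 2 without HFD2 or HFD3 (188 of 4710 and 143 of 4869 over all genes) to 6 without LYC3 (704 of 7248). It was 8 on the deposited RPKM, where the number over all 5775 genes also rose, from 364 to 651. It was 3 with a pseudocount of 0.1 (284 of all 5775 genes) or with no filter on low values (710 of 15749), and 1 with an unadjusted p below 0.001 (101 of 5775).

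The suppliers of carbon and NADPH were read from a list of 18 genes, of which 17 passed the filter. Here limma called 4 higher beside 7.0% of all genes and 0 lower beside 6.3%, with a median log2 fold change of 0.31. At an unadjusted p below 0.05, 5 were higher beside 15.0% and 1 lower beside 14.9%, and edgeR and DESeq2 each called 5 higher and 0 lower. Mdh1, the cytosolic malate dehydrogenase that makes the substrate of Me1, rose from 245 ± 43.9 to 641 ± 126 RPKM (SD, n = 3 each, log2 fold change 1.68, adjusted p = 0.00463 in limma). Idh1, a cytosolic source of NADPH, and Mpc2, a subunit of the mitochondrial pyruvate carrier, rose at 1.22 and 1.20 (adjusted p = 0.016 and 0.013 in limma). On the deposited RPKM neither Idh1 nor Mpc2 was called, and 1 gene of the list was called higher and 1 lower. Mpc2 was not called with the length trend removed either.

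Among 19 other genes of elongation and desaturation, 12 passed the filter, 1 was called higher beside 7.0% of all genes and 2 were called lower beside 6.3%, with a median of 0.03. Cyb5a, the cytochrome that passes electrons to desaturases such as Scd1, rose from 472 ± 69.2 to 1561 ± 303 RPKM (SD, n = 3 each, log2 fold change 2.01, adjusted p = 0.00151 in limma). Cyb5b, its counterpart on the outer mitochondrial membrane, fell from 129 ± 27.2 to 46.0 ± 3.55 RPKM (log2 fold change -1.16, adjusted p = 0.0178 in limma). Hacd2, a dehydratase of the elongation cycle, was called lower at -1.16 (adjusted p = 0.053 in limma) on 4, 7 and 5 LYC reads, and was called only without LYC2 in the 6 fits that leave out a library (-1.38 to -1.05). With the length trend removed neither Cyb5b nor Hacd2 was called, and Hacd2 was not called with a pseudocount of 5 or with the replicate block either.

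Of 16 genes that control acetyl-CoA carboxylase or use malonyl-CoA, 8 passed the filter. Here limma called 1 lower beside 6.3% of all genes and 0 higher beside 7.0%, with a median of -0.03, and the counts were the same at an unadjusted p below 0.05, by edgeR and by DESeq2. The gene called was the kinase Stk11 (log2 fold change -1.52, adjusted p = 0.0618 in limma). It rests on 4, 14 and 16 LYC reads, and its call was lost without HFD1, HFD2, HFD3 or LYC1 (-1.79 to -1.05 over the 6 fits) and with a pseudocount of 0.1, with no filter or with the length trend removed. Thrsp relative to its paralogue Mid1ip1, a gene of this list, was 5.78, 5.74 and 6.11 in HFD and 70.4, 34.6 and 62.5 in LYC, although Mid1ip1 had only 8, 15 and 14 LYC reads. Of the mitochondrial fatty acid synthesis genes, 6 of 7 are in the table and 5 passed the filter, with 1 called higher beside 7.0% of all genes, 1 lower beside 6.3%, and a median of -0.60. Ndufab1, the mitochondrial acyl carrier protein, was called higher (log2 fold change 1.37, adjusted p = 0.0219 in limma) and Mcat, which loads malonyl units onto it, lower (-2.46, adjusted p = 0.0343 in limma) on 3, 0 and 1 LYC reads. The call of Mcat was lost with a pseudocount of 0.1 and without LYC3, and without an HFD library it did not pass the filter.

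**Figure D5:**
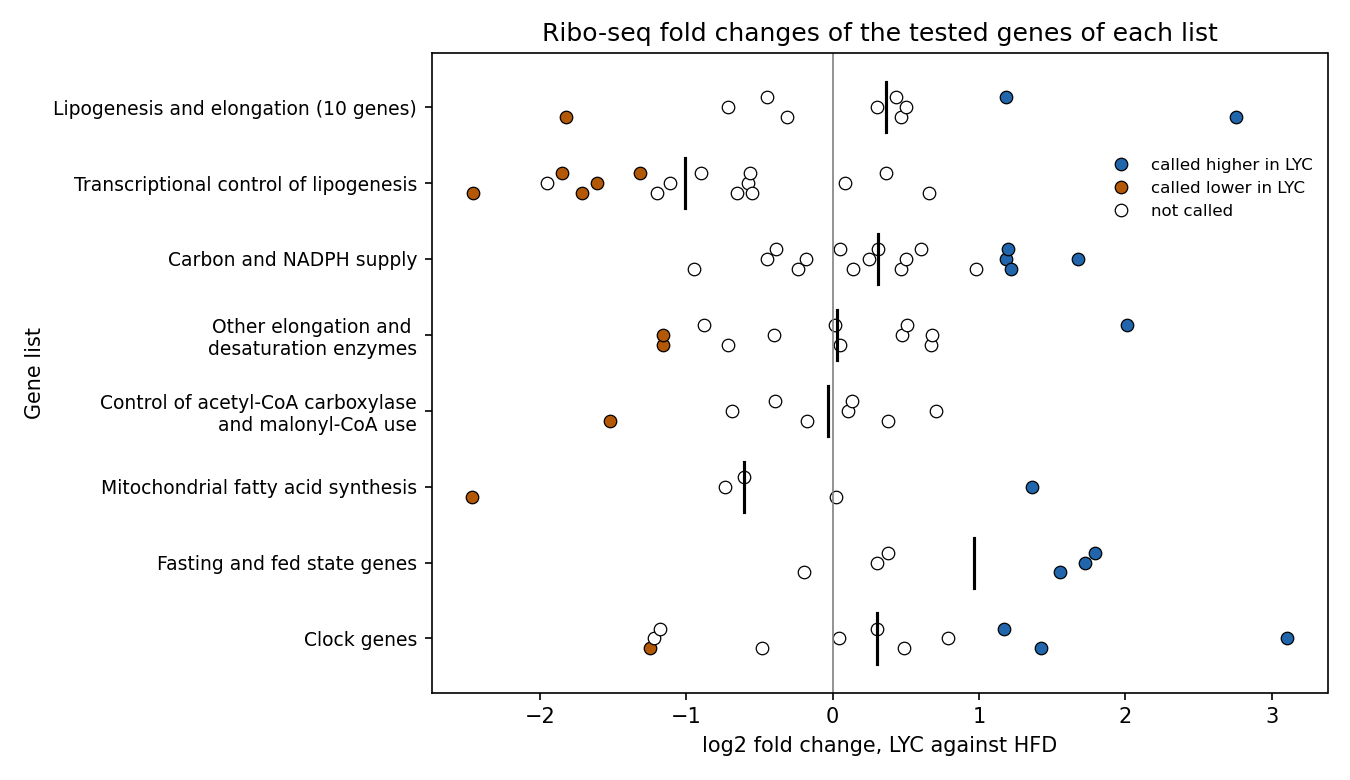
Log2 fold change of LYC against HFD in limma for the tested genes of each list, where filled points were called and black bars mark the median of a list. The median is -1.01 for the regulators, 0.31 for carbon and NADPH supply and 0.37 for the 10 lipogenesis and elongation genes.

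Genes that follow feeding and the time of day also differed between the groups. Of 10 genes of fasting and feeding, 6 passed the filter and limma called 3 higher beside 7.0% of all genes and 0 lower beside 6.3%, with a median of 0.97. The counts were the same at an unadjusted p below 0.05 and by edgeR and DESeq2. With no filter 2 genes were called lower, beside 710 of all 15749 genes. Without HFD1, LYC1, LYC2 or LYC3 1 was called lower, beside 170 of 4901, 464 of 7283, 487 of 7212 and 704 of 7248 genes. Without LYC1 4 were called higher, beside 403 of 7283. Pck1, the gluconeogenic enzyme, had 253, 530 and 405 RPKM in HFD and 958, 1731 and 747 RPKM in LYC (log2 fold change 1.80, adjusted p = 0.0151 in limma), and Angptl4 and Tat rose at 1.73 and 1.56 (adjusted p = 0.0108 and 0.0186 in limma). Other genes of the list did not rise. G6pc was at -0.19 (adjusted p = 0.743 in limma). Irs2, which did not pass the filter, had 2.05, 4.11 and 4.76 RPKM in HFD and 0.373, 0.473 and 0.357 RPKM in LYC, on 1 read in each LYC library. Fgf21 did not pass either, with 8, 9 and 3 reads in HFD and 0 in each LYC library. The groups overlapped for Pdk4 and Ppargc1a, which did not pass. Of 15 clock genes, 11 passed the filter, 3 were called higher beside 7.0% of all genes and 1 lower beside 6.3%, with a median of 0.31. When a library was left out, 1 to 2 clock genes were called higher and 0 to 3 lower, the most lower without LYC2. Over all genes these fits called 268 to 573 higher and 143 to 704 lower, with 487 of 7212 lower without LYC2. With no filter 2 clock genes were called lower, beside 710 of all 15749 genes. Dbp, an output of the clock, had 1.09, 7.31 and 5.00 RPKM in HFD and 21.2, 51.7 and 31.8 RPKM in LYC (log2 fold change 3.10, adjusted p = 0.00741 in limma). Tef and Per2 were called higher at 1.43 and 1.17 (adjusted p = 0.0524 and 0.0557 in limma) and Clock lower at -1.25 (adjusted p = 0.0382 in limma). The call of Tef was lost without HFD1, HFD3, LYC2 or LYC3 (1.09 to 1.69 over the 6 fits) and that of Clock without HFD1, HFD2 or HFD3 (-1.41 to -1.18). On the deposited RPKM neither Tef nor Per2 was called. Neither Per2 nor Clock was called with a pseudocount of 5, with no filter or with the replicate block, nor Per2 with a pseudocount of 0.1, nor Clock with the length trend removed. The call of Per2 was lost without LYC1 or LYC2, and without an HFD library it did not pass the filter. Arntl, which encodes the partner of the CLOCK protein, had 58, 41 and 15 reads in HFD and 0 reads in each LYC library, and was at least 1.67-fold lower in LYC by scaled RPKM against a floor of 3 reads a library. The time of sampling and of the last meal is not given in the sources used here, and the part of these genes in the results for Thrsp, Elovl6 and Elovl3 was not tested.

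The libraries labelled RNA-seq gave no separate readout of these genes. Across 11182 genes, each of them correlated best with a Ribo-seq library, at r = 0.932 to 0.961, where genes are not independent replicates. The library labelled RNA-seq HFD1 was closest to Ribo-seq HFD2, HFD2 to HFD3 and HFD3 to HFD1, while LYC1 to LYC3 each matched their own number. Among genes with 50 or more reads, 79.4% to 87.3% had counts within 5% of the recovered Ribo-seq reads of that library, after division by the median ratio of 1.00 to 1.03. Thrsp had 839, 147 and 397 counts in the libraries labelled RNA-seq HFD1, HFD2 and HFD3, beside 821, 144 and 387 Ribo-seq reads in HFD2, HFD3 and HFD1. Elovl3 had 24, 15 and 32 counts in the LYC libraries of both tables. Whether the shared reads are footprints or fragments of total RNA cannot be told apart from the tables, so no translational efficiency was computed. In edgeR's quasi-likelihood test on these counts 9.31% of 5921 genes were called higher and 7.33% lower, and of the 10 genes Thrsp (log2 fold change 2.80) and Elovl6 (1.23) were again higher and Elovl3 (-1.88) lower. In these libraries the share of counts on Lars2, a gene picked once its values were known, was 6.68% to 15.0% for HFD and 35.9% to 40.3% for LYC. In the Ribo-seq table it held 0.0768% to 0.223% of the recovered reads. A fit of these counts without Lars2 was run, but its result is not reported here. The largest difference from the Ribo-seq log2 fold change in limma was 0.23, for Elovl5, at -0.49 against -0.71. By the same edgeR test the recovered Ribo-seq reads gave -0.51 for Elovl5.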

How the data were processed

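Livers were sequenced as 6 Ribo-seq libraries and 6 libraries labelled RNA-seq, 3 each of HFD and LYC. Per the labels and the study's methods, the authors used cutadapt and Bowtie2 for cleaning, STAR with GRCm38/mm10 for alignment and FANSE2 for quantification. Versions, annotation and filters are not given in the sources used here. For Ribo-seq the authors deposited RPKM values, and for the libraries labelled RNA-seq they deposited read counts and RPKM. The authors' RPKM is scaled to each library's own total, so a few abundant genes can shift all others.

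Reads behind the Ribo-seq RPKM were recovered from the steps of 1 read. On a gene of 1 kb a read was worth 0.227 to 1.20 RPKM in HFD and 2.43 to 3.21 RPKM in LYC, so low LYC values are coarse. With the gene lengths of the other table, 72.7% to 73.8% of values were whole within 0.03 reads, and for 4567 of 15749 genes a length was fitted. The 26 entries whose names had become dates could not be matched to genes, and 4 entries sharing a name were left out.

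Genes kept by filterByExpr on the recovered reads were tested with limma (trend) on log2(RPKM/TMM factor + 1). The pseudocount of 1 understates changes of low genes. The libraries labelled RNA-seq were tested on their counts by the quasi-likelihood test of edgeR. Of the p limits the study states, 0.01 in its results and 0.001 in its methods, the former was used, with the latter as an alternative. Single values were compared by exact permutation tests. The scripts were tested on simulated data. Replicate numbers are shared between groups, but the deviations of same-numbered libraries correlated at 0.108, 0.026 and 0.007, so they were not treated as pairs.

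Named genes are the 10 genes, Srebf1 and Mlxipl, and at most 4 called genes in each direction of each pathway list by smallest p. Not every gene this covers is reported here. Arntl, Mid1ip1, Nr1h2, Lars2, Cps1, Tdo2, G6pc, Irs2, Fgf21, Pdk4, Ppargc1a and the ratios were chosen after their values were seen. The 10 genes and the lists were chosen with earlier results of these data known. Alternatives were other pseudocounts, filters, limits and scalings, edgeR and DESeq2 on recovered reads, a replicate block, removal of the trend on gene length, and leaving out each library. Promoters come from RefSeq. Protein sequences were not used here. Python 3.11.15 was used with scipy 1.17.1, pandas 2.3.3, matplotlib 3.10.9 and numpy 2.4.6, and R 4.3.3 with DESeq2 1.42.0, edgeR 4.0.16 and limma 3.58.1.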

Additional observations from a re-analysis of the deposited data

How the results depend on the processing

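Thrsp and Elovl3 were called under all 10 other settings of the fit and all 6 fits that leave out a library, and Elovl6 under 9 of 10 settings and 2 of 6 fits. Acacb changed sign, at 0.005042, with the length trend removed (adjusted p = 0.992 in limma); the cause was not tested. With an unadjusted p below 0.001, limma called 196 genes higher and 101 lower and 1 of the 10 genes higher, Elovl6 being lost. RPKM as deposited gave 235 higher and 651 lower, with 1 of the 10 genes higher. A pseudocount of 5 gave 222 lower, and testing all genes above 0 gave 710 lower. Leaving out a library gave 268 to 573 genes higher and 143 to 704 lower, the lowest without HFD3 and the highest without LYC3, with fewer or more genes passing the filter; of the 10 genes 1 to 2 were higher and 1 to 2 lower. With the replicate block 397 genes were higher and 340 lower and no call of the 10 genes changed. In the libraries labelled RNA-seq, testing all genes gave 988 lower, and 1 to 2 of the 10 genes were lower when a library was left out, Elovl5 being added without LYC3. Depth limits low genes most in LYC, where Elovl3 rests on 15 to 32 reads a library.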
